A study of Homo sapiens with 18 samples.

Results

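The 10 genes described here carry the G1 phase decision of the cell cycle: the D-type cyclins CCND1, CCND2 and CCND3, their kinases CDK4 and CDK6, and the CDK inhibitors CDKN1A (p21), CDKN1B (p27), CDKN1C (p57), CDKN2C (p18) and CDKN2D (p19). They were taken from the deposited gene table by symbol, as a list chosen with earlier results of these data known. They make up 10 of 60623 genes in the table and 10 of the 16414 genes with enough counts to test. RNA was sequenced from HEK-293E cells, a line derived from human embryonic kidney cells, in 18 libraries that form 6 groups of 3. Starved cells had spent a night in DMEM with 0.1% FBS, and fed cells were then returned to the growth medium, DMEM with 10% FBS and antibiotics, for 1 h or 4 h. Each of these 3 states was measured in untreated cells and in cells given Torin1, which inhibits the kinase mTOR; for Torin1 neither dose nor duration is stated in the labels. All groups are the same line, and 293 cells carry the adenoviral E1A protein, which binds RB, so the step that CDK4 and CDK6 control is altered in this model as background. Whether the 3 libraries of a group came from separate cultures is not stated. The p-values therefore rest on library-to-library spread alone, which may be technical.

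D-type cyclins bind CDK4 or CDK6, and the complexes phosphorylate the retinoblastoma protein RB, which frees E2F factors to start the genes of S phase. Inhibitors of the INK4 family, such as CDKN2C and CDKN2D, bind CDK4 and CDK6 alone and keep cyclins off, whereas those of the CIP/KIP family, CDKN1A, CDKN1B and CDKN1C, bind cyclin-CDK complexes and block CDK2 in particular. Serum raises D cyclins and removes CDKN1B in many cells, and mTOR is known to control D cyclin protein through translation, which RNA levels do not show.

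Promoters of 3 of the genes are shown first, because CDKN2D had the largest changes of the list, CCND3 was the D cyclin that rose with feeding and CDK4 was the most abundant transcript. RefSeq promoter entries on build GRCh38.p14 were matched for 7 of the 10 genes, in 12 windows, and those of CCND1, CCND2 and CDKN1C were not matched. The first sequence is CDKN2D on chromosome 19, chr19:10569060-10569229, minus strand, from 250 to 81 bases before the RefSeq start and near the annotated start of transcript CDKN2D-202. Of CDKN2D isoform counts in starved cells this transcript held 20.1%. The main transcript CDKN2D-201, whose start is not within 50 bases of that RefSeq start, held 79.9%. The second is CCND3, chr6:41941849-41942058, minus strand, from 250 to 41 bases before the RefSeq start. The annotated start of its main transcript CCND3-203 lies within 50 bases of that RefSeq start. Both printed stretches lie outside annotated exons. The third is a stretch of 30 bases of the CDK4 promoter entry, chr12:57752499-57752528, minus strand, from 218 to 189 bases before the RefSeq start. That start is not the one of the main transcript CDK4-201, which begins within the stretch: 23 of the 30 bases, and 211 of the 250 bases of the window, lie in its first exon. Capitals mark the GC box GGGCGG (or CCGCCC, its other strand) in the first 2 and the E-box CACGTG in the third.
CDKN2D: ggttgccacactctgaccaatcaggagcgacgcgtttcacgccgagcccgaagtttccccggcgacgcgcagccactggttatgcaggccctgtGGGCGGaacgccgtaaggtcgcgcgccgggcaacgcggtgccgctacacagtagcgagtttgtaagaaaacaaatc
CCND3: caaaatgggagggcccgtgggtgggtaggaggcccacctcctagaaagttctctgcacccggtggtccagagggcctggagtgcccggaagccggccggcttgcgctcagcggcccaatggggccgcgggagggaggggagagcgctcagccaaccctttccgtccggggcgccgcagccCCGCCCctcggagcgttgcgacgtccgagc
CDK4: gtCACGTGtgatagcaacagatCACGTGgc

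Motifs were searched on both strands in the 250 bases before each start, and none of those searched lies within another. The CDK4 window held 3 E-boxes CACGTG, the sequence that MYC and MAX, USF and MLX family factors can bind, and 2 of them lie wholly in the first exon of CDK4-201. Of 35116 RefSeq promoters of the same length, 6.34% held at least 1 such E-box and 28, or 0.0797%, held at least 3. Among the other windows, 2 of the 3 CDKN2C windows held 1 E-box each. The GC box, which SP factors can bind, was in 42.6% of all promoters and in at least 1 window of each of the 7 genes. The first value counts single windows, whereas a gene with more than 1 window has more chances of a match. GC content ranged from 45.6% to 80% in the 12 windows, against a median of 58% over all promoters. The E2F motif TTTNGCGC (1.51% of promoters), the cyclic AMP element TGACGTCA (1.65%), the TATA box TATAAA (10.7%) and the FOXO motif GTAAACA (2.98%) had no match in the 12 windows, which says only that these letters are not there. A match describes the sequence and is not a measured binding site.

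Library totals ranged from 10510680 to 13690036 counts, and levels are given as CPM, which relate TMM-scaled counts to the library total. With 3 counts taken as the limit for a count of 0, which covers counting error only, the floor was 0.209 to 0.292 CPM per library. The lowest count of any of the 10 genes was 32, for CDKN1C. All 8 markers fixed for HEK-293 cells were found in every library (summed level 939 to 1164 CPM without and 1319.9 to 1669 CPM with Torin1). VIM led this sum, at 521 to 1333 CPM. PAX2 and LHX1 were low, at 0.715 to 4.37 and 1.53 to 4.21 CPM. Of 5 fibroblast markers COL1A1 led, and the summed level ranged from 10.7 to 43.1 CPM in starved, 9.38 to 29.4 in 1 h fed, 8.40 to 14.97 in 4 h fed and 15.2 to 36.6 in Torin1 libraries. DCN was at 0 in 12 libraries and LUM in 4. Immune and endothelial markers summed to at most 1.69 and 1.65 CPM, with MS4A1 at 0 in 18 libraries, CD3E in 17, CDH5 in 16 and PTPRC in 15. The part of such RNA in the results was not tested.

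A gene was called when its edgeR adjusted p was under 0.05 over all 16414 genes. After 1 h of feeding, 1 of the 10 genes was lower and 0 were higher, against 0.164% and 0.481% of all genes and 0.646% in either direction, and 4 of the 10 had an unadjusted p under 0.05. After 4 h, 2 were higher and 4 lower than in starved cells, against a background of 23.2% and 19.1% (42.3% in all), and from 1 h to 4 h 3 were higher and 4 lower (background 21.7% and 18.1%, 39.8% in all). Torin1 moved 8 of the 10 genes in starved cells, 3 up and 5 down, where 63.5% of all genes moved (33.9% up, 29.6% down). The counts were again 3 up and 5 down with Torin1 in 1 h fed cells (33.2% and 29.9% of all genes, 63.1% in all) and 2 up and 4 down in 4 h fed cells (27.4% and 28.6%, 56% in all). The shares of members called by 4 h feeding and by Torin1 thus lay near those of all genes, and what follows describes which of them moved, in which direction and by how much.

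With Torin1 present, 4 h of feeding moved fewer genes. At 1 h the order of the all-gene counts depended on the setting. The main fit called 106 genes without and 66 with Torin1. A fit of only the groups compared called 42 without and 192 with it. After 1 h with Torin1, 0 of 10 were called by edgeR and 0 by DESeq2, with 2 at an unadjusted p under 0.05, against 0.402% of all genes called. After 4 h with Torin1, 1 was higher and 2 lower than in starved cells with Torin1 (background 0.829% and 0.975%, 1.8% in all), and the same counts held from 1 h to 4 h with Torin1 (0.573% and 0.896%, 1.47% in all). Whether feeding acted differently with Torin1 was tested by an interaction term. At 1 h 0 of 10 were called by edgeR and 1 by DESeq2, with 2 at an unadjusted p under 0.05 (0.067% of all genes called, 0.0122% upward and 0.0548% downward). At 4 h 5 were called, of which 2 responded more positively to feeding under Torin1 and 3 more negatively (9.74% and 16%, 25.8% in all).

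CCND3, the D cyclin most common in blood cells, was the one that rose with feeding. Its level was 29.5, 29.6 and 29.6 CPM in the 3 starved libraries, 30.7, 33.0 and 32.9 CPM after 1 h and 61.2, 56.1 and 52.2 CPM after 4 h. All 4 h fed libraries stood above every starved and 1 h fed library. The mean went from 29.6 ± 0.0198 to 56.5 ± 4.52 CPM (SD, n = 3), a 1.91-fold rise with a log2 fold change of 0.93 (SE 0.11) and an edgeR adjusted p of 3.67e-08, while at 1 h it was not called (0.12, 95% interval −0.11 to 0.35). With Torin1 the same gene stood at 36.8, 27.9 and 28.6 CPM in starved, 29.9, 36.8 and 33.5 CPM in 1 h fed and 33.6, 33.8 and 32.5 CPM in 4 h fed libraries. These 3 groups overlapped, and the 4 h response was not called (0.10, 95% interval −0.13 to 0.32). The interaction, the response to 4 h of feeding with Torin1 minus that without, was −0.84 (SE 0.16, edgeR adjusted p = 0.000121). Torin1 lowered CCND3 in 4 h fed cells (−0.76, SE 0.11) and was not called to change it in starved (0.08, 95% interval −0.15 to 0.31) or 1 h fed cells (0.06, −0.17 to 0.28). CCND3 overlaps RNU6-761P on the same strand and the noncoding gene AL513008.1 on the other strand.

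CCND2, which many growing tissues use beside or in place of CCND1, fell with 4 h of feeding and with Torin1. Its level was 94.6, 85.0 and 93.5 CPM in starved, 87.8, 103 and 99.1 CPM in 1 h fed and 73.7, 70.9 and 69.8 CPM in 4 h fed libraries. The 4 h fed libraries were below all starved and 1 h fed ones, with log2 fold changes of −0.35 (SE 0.10) against starved (edgeR adjusted p = 0.00369) and −0.44 (SE 0.10) against 1 h fed cells. With Torin1 the level was 46.1, 40.9 and 38.3 CPM in starved, 38.7, 35.9 and 32.3 CPM in 1 h fed and 19.4, 21.7 and 23.3 CPM in 4 h fed libraries. Every library with Torin1 stood below every library without it. Torin1 lowered CCND2 by 2.18-fold in starved cells (−1.12, SE 0.10), 2.72-fold in 1 h fed cells (−1.44, SE 0.10) and 3.33-fold in 4 h fed cells (−1.73, SE 0.10, edgeR adjusted p = 2.34e-14). The fall with 4 h of feeding was larger with Torin1, at −0.96 (SE 0.10), than without, and this difference of −0.61 had an edgeR adjusted p of 0.00129. The gene overlaps an antisense transcript, CCND2-AS1, and AC008012.1, a gene annotated on the same strand. Strand use in counting is not given, so reads of the antisense transcript cannot be told apart. Strand would not separate reads of the gene on the same strand.

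CCND1, the D cyclin that growth factor signalling through ERK is best known to raise, did not pass the test with feeding alone. The libraries held 37.4, 34.3 and 37.8 CPM in starved, 39.9, 43.2 and 35.3 CPM in 1 h fed and 42.9, 41.2 and 43.1 CPM in 4 h fed cells. The 4 h fed libraries lay above the starved ones, by a log2 difference of 0.22 (95% interval 0.00 to 0.43, edgeR adjusted p = 0.0981). With Torin1 the values were 24.7, 24.4 and 21.2 CPM in starved, 21.3, 22.7 and 22.9 CPM in 1 h fed and 16.3, 15.1 and 15.2 CPM in 4 h fed cells. They were below all libraries without Torin1, and those of 4 h fed cells were the lowest. Torin1 changed CCND1 by −0.64 in starved, −0.82 in 1 h fed and −1.45 in 4 h fed cells on the log2 scale, the last a 2.73-fold difference (SE 0.11, edgeR adjusted p = 3.3e-12). Under Torin1 CCND1 fell with 4 h of feeding (−0.59, SE 0.11, edgeR adjusted p = 0.00195), and the interaction was −0.81 (SE 0.15, edgeR adjusted p = 0.00015). Its fall from 1 h to 4 h under Torin1 (−0.52, edgeR adjusted p = 0.0106) lost the call when any of 4 libraries was left out (1 h fed with Torin1 replicate 2 or 3, 4 h fed with Torin1 replicate 2 or 3), with adjusted p up to 0.0699. CCND1 overlaps LTO1 on the other strand.

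CDK4, the main partner of D cyclins in most cells, was lower in every Torin1 library than in any library without Torin1. The values were 369.6, 359 and 389 CPM in starved, 357, 379.7 and 354 CPM in 1 h fed and 334, 291 and 297 CPM in 4 h fed cells. The 4 h fed libraries were below the others, with a log2 fold change of −0.28 (SE 0.07) against starved cells (edgeR adjusted p = 0.00212). The call against 1 h fed cells (−0.24, edgeR adjusted p = 0.0071) was lost when only the groups compared were fitted (adjusted p = 0.0544). With Torin1 the values were 238, 219 and 217 CPM in starved, 236, 224 and 234 CPM in 1 h fed and 215, 201 and 211 CPM in 4 h fed cells. Torin1 lowered CDK4 by 1.66-fold in starved (−0.73, SE 0.07), 1.57-fold in 1 h fed (−0.65, SE 0.07) and 1.47-fold in 4 h fed cells (−0.56, SE 0.07, edgeR adjusted p = 1.11e-07). Feeding under Torin1 was not called at 4 h (−0.10, 95% interval −0.25 to 0.04), and the interaction at 4 h was 0.18 (95% interval −0.03 to 0.38). TSPAN31 and MARCH9 overlap CDK4 on the other strand.

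CDK6, the second kinase of D cyclins, went the other way with Torin1. Its values were 62.1, 64.4 and 62.5 CPM in starved, 68.4, 71.9 and 74.9 CPM in 1 h fed and 64.1, 76.3 and 71.9 CPM in 4 h fed cells, and with Torin1 76.9, 94.97 and 83.1 CPM in starved, 97.2, 85.8 and 90.9 CPM in 1 h fed and 74.5, 78.0 and 74.6 CPM in 4 h fed cells. The starved and 1 h fed groups did not overlap between cells with and without Torin1, whereas the 4 h fed groups did. Torin1 raised CDK6 by 0.43 (SE 0.09) in starved (edgeR adjusted p = 0.000112) and 0.35 (SE 0.09) in 1 h fed cells. The difference in 4 h fed cells was 0.10 (95% interval −0.09 to 0.28) and was called, among the alternatives run, with scaling by total counts only (0.26, edgeR adjusted p = 0.0131). Feeding was not called to change CDK6, at 0.19 after 1 h and 0.17 after 4 h (95% interval −0.02 to 0.35). The 4 h interaction of −0.33 had an edgeR adjusted p of 0.051 and was called with a replicate block (adjusted p = 0.0465), without 4 h fed replicate 1 and without starved Torin1 replicate 1. CDK6 overlaps the antisense gene AC002454.1.

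**Figure D1:**
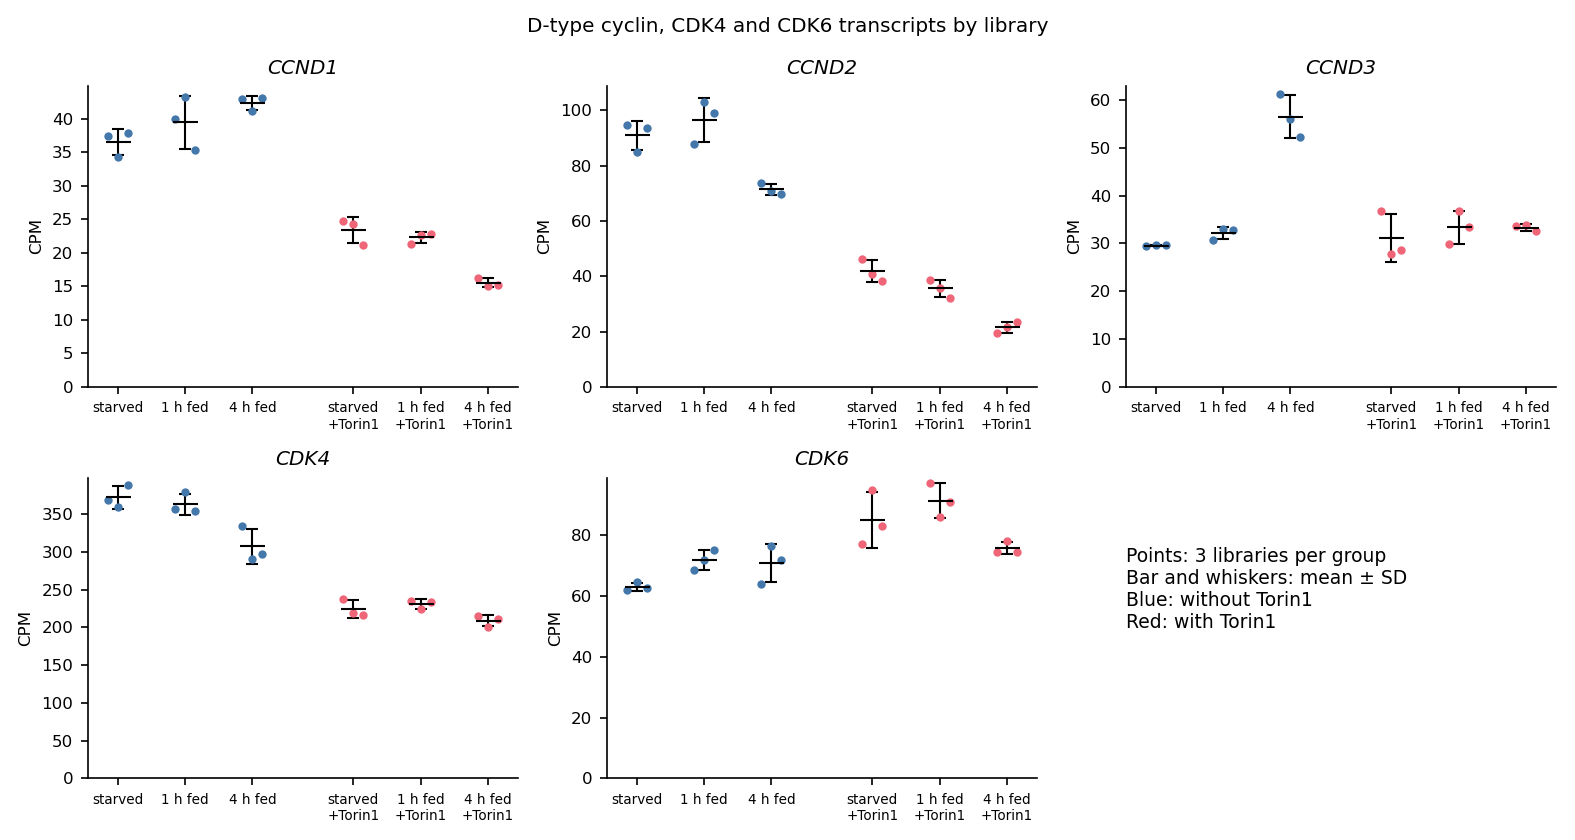
Levels in CPM (vertical axes, from 0) of the D-type cyclin, CDK4 and CDK6 transcripts in the 6 groups (horizontal axes), with 1 point per library and the mean ± SD of 3 libraries as bars. CCND3 stands apart only after 4 h of feeding without Torin1, at 56.5 ± 4.52 CPM, while CCND1, CCND2 and CDK4 are lower in all 9 libraries with Torin1 than in the 9 without.

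CDKN2D, an INK4 inhibitor, had the largest changes of the list. Starved libraries held 41.8, 49.0 and 47.2 CPM, 1 h fed libraries 32.7, 32.4 and 35.2 CPM and 4 h fed libraries 11.5, 6.24 and 4.59 CPM. The 3 groups did not overlap. The mean was 6.15-fold lower after 4 h than in starved cells, a log2 fold change of −2.62 (SE 0.24) with an edgeR adjusted p of 1.94e-08, which ranked 194 by size among the 16414 genes. The 1 h difference of −0.46 (95% interval −0.91 to −0.02) was not called. With Torin1 the gene was low in all states, at 6.61, 3.69 and 3.42 CPM in starved, 5.56, 3.53 and 3.96 CPM in 1 h fed and 4.98, 5.72 and 4.08 CPM in 4 h fed libraries, from 39 to 95 counts each. Torin1 lowered it 9.90-fold in starved (−3.31, SE 0.25, edgeR adjusted p = 3.13e-10, rank 198 by size) and 7.70-fold in 1 h fed cells (−2.94, SE 0.26).

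In order of mean level, CDKN2D went from starved cells, at 46.0 ± 3.77 CPM (SD, n = 3), to 1 h fed, at 33.4 ± 1.55 CPM, and 4 h fed cells, at 7.43 ± 3.59 CPM. It was followed by the 3 groups with Torin1, at 4.92, 4.57 and 4.35 CPM, whose libraries overlapped one another and those of 4 h fed cells. In 4 h fed cells the difference with Torin1 was −0.60 (95% interval −1.18 to −0.03, edgeR adjusted p = 0.0679). It was called with no filter on low counts, with a replicate block, by the DESeq2 Wald test and without 4 h fed replicate 3, with adjusted p from 0.0059 to 0.0491, and was not called in the other alternatives. Without 4 h fed replicate 1 the difference was −0.14 (adjusted p = 0.669), and without 4 h fed replicate 3 it was −0.85, so its size rests on single 4 h fed libraries. Feeding for 4 h under Torin1 gave 0.08 (95% interval −0.51 to 0.68), and the interaction of 2.70 (SE 0.37) was called (edgeR adjusted p = 1.23e-05). Of the 4 h fed libraries, replicate 1 held the highest level, and without it the log2 fold change against starved cells was −3.09. No annotated gene overlaps CDKN2D.

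CDKN1C, a CIP/KIP inhibitor linked to arrest in development, fell as CDKN2D did with 4 h of feeding without Torin1. Both also fell with Torin1 in starved and 1 h fed cells. Without Torin1 the mean level of CDKN1C was below that of CDKN2D in each state. CDKN1C stood at 17.4, 18.5 and 10.7 CPM in starved, 13.9, 8.73 and 9.56 CPM in 1 h fed and 3.15, 3.74 and 3.37 CPM in 4 h fed libraries. The 4 h fed libraries were below all others without Torin1, and the 1 h fed ones overlapped the starved. After 4 h it was 4.55-fold lower than in starved cells (−2.18, SE 0.26, edgeR adjusted p = 3.38e-08). With Torin1 the values were 7.45, 4.09 and 5.18 CPM in starved, 4.19, 2.69 and 4.31 CPM in 1 h fed and 3.77, 4.34 and 5.31 CPM in 4 h fed libraries. Torin1 lowered the gene in starved (−1.47, SE 0.24) and 1 h fed cells (−1.51, SE 0.25), and in 4 h fed cells it was not called (0.39, 95% interval −0.17 to 0.95). The interaction at 4 h was 1.86 (SE 0.36, edgeR adjusted p = 0.000214). Summed fibroblast markers were also lower in 4 h fed (8.40 to 14.97 CPM) than in some starved libraries (10.7 to 43.1 CPM), and their part in the CDKN1C result was not tested. The 4 h comparison and the Torin1 comparison in starved cells share the starved libraries, so a likeness between them is no separate result.

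CDKN2C, the other INK4 inhibitor of the list, rose where CDKN2D fell. Its values were 35.8, 34.8 and 37.2 CPM in starved, 34.7, 29.2 and 33.5 CPM in 1 h fed and 56.4, 46.6 and 47.0 CPM in 4 h fed libraries. The 4 h fed libraries were above all others without Torin1, at a log2 fold change of 0.48 (SE 0.10) against starved cells (edgeR adjusted p = 0.000216). With Torin1 the values were 73.8, 66.6 and 73.7 CPM in starved, 63.3, 73.7 and 73.4 CPM in 1 h fed and 97.6, 98.2 and 93.3 CPM in 4 h fed libraries, all above those without Torin1. Torin1 raised CDKN2C 1.99-fold in starved (0.99, SE 0.10), 2.16-fold in 1 h fed (1.11, SE 0.10) and 1.92-fold in 4 h fed cells (0.94, SE 0.09, edgeR adjusted p = 9.42e-10). It also rose with 4 h of feeding under Torin1 (0.43, SE 0.09, edgeR adjusted p = 0.00815), a call lost without replicate 2 of starved Torin1 cells (adjusted p = 0.0741) or of 4 h fed Torin1 cells (0.0516). From 1 h to 4 h under Torin1 it rose by 0.46, and this call was lost without 1 h fed Torin1 replicate 1 (adjusted p = 0.0814). The 4 h responses without and with Torin1 differed by −0.05 (95% interval −0.32 to 0.23), which was not called.

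CDKN1B, which binds cyclin E and CDK2 and is a known FOXO target, was the 1 gene of the list called after 1 h of feeding. Its level was 37.7, 41.0 and 37.0 CPM in starved, 24.7, 23.1 and 28.7 CPM in 1 h fed and 35.9, 37.8 and 35.0 CPM in 4 h fed libraries. The 1 h fed libraries were below all others, and those of 4 h fed and starved cells overlapped. The gene fell by 0.60 on the log2 scale at 1 h (95% interval −0.81 to −0.38, edgeR adjusted p = 0.00253) and rose by 0.51 (SE 0.11) from 1 h to 4 h, so that at 4 h the difference from starved cells was −0.09 (95% interval −0.30 to 0.12). With Torin1 the values were 55.6, 54.6 and 52.99 CPM in starved, 50.2, 62.3 and 59.3 CPM in 1 h fed and 64.6, 63.0 and 57.3 CPM in 4 h fed libraries. All 9 were above the 9 without Torin1. Torin1 raised CDKN1B by 0.50 (SE 0.10) in starved, 1.17 (SE 0.10) in 1 h fed (a 2.25-fold difference, edgeR adjusted p = 3.76e-11) and 0.77 (SE 0.10) in 4 h fed cells. CDKN1B overlaps AC008115.3, a gene annotated on the same strand. After 1 h of feeding under Torin1 the change of CDKN1B was 0.07 (95% interval −0.13 to 0.27). The difference between the 1 h responses was 0.67 (SE 0.14) with an edgeR adjusted p of 0.0728, which missed the threshold, although it was called by the DESeq2 Wald test (adjusted p = 0.00782), with no filter on low counts (0.0154), with a replicate block (0.0479) and without 1 h fed replicate 3 or 1 h fed Torin1 replicate 1.

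CDKN1A, an inhibitor that arrests the cell cycle after DNA damage, was called in 0 of the 11 comparisons by edgeR. Its values were 32.3, 26.2 and 30.2 CPM in starved, 50.9, 27.1 and 25.4 CPM in 1 h fed and 37.6, 36.3 and 27.6 CPM in 4 h fed libraries, and with Torin1 41.2, 26.5 and 26.9 CPM in starved, 35.6, 26.1 and 27.7 CPM in 1 h fed and 32.2, 27.9 and 26.9 CPM in 4 h fed libraries. Replicate 1 was the highest library in 6 of 6 groups, and the groups overlapped in every comparison. The spread left wide intervals, −0.34 to 0.73 on the log2 scale for 4 h of feeding and −0.43 to 0.63 for Torin1 in starved cells. DINOL, a noncoding gene on the other strand, overlaps CDKN1A.

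**Figure D2:**
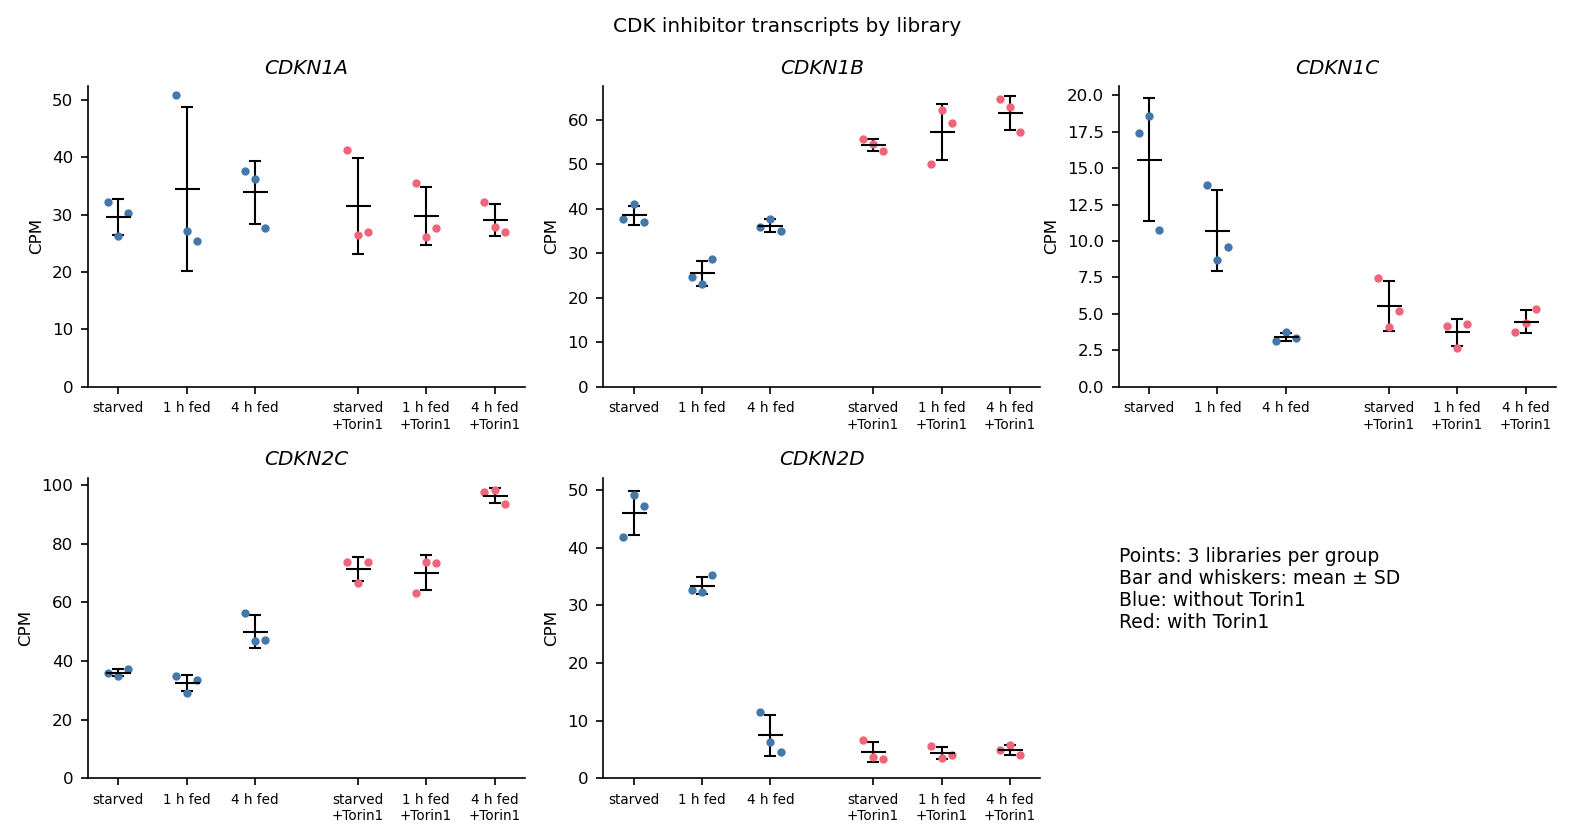
Levels in CPM (vertical axes, from 0) of the 5 CDK inhibitor transcripts in the 6 groups (horizontal axes), with 1 point per library and the mean ± SD of 3 libraries as bars. CDKN2D falls from 46.0 CPM in starved to 7.43 CPM in 4 h fed cells and is at most 6.61 CPM in all libraries with Torin1, where CDKN1B and CDKN2C are high.

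Across the 3 Torin1 comparisons, which share no library, 5 of the 10 genes were called each time in 1 direction, against 38.3% of all genes. CDKN1B and CDKN2C were higher (18.8% of all genes), and CCND1, CCND2 and CDK4 lower (19.6%), so the count is not far from the background. The plot of log2 fold changes sets these beside the responses to 4 h of feeding. Across the scaling alternatives 0 of the called changes reversed. Scaling by total counts shifted the all-gene median of the Torin1 comparisons by 0.14 (starved), 0.11 (1 h fed) and 0.16 (4 h fed) on the log2 scale.

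**Figure D3:**
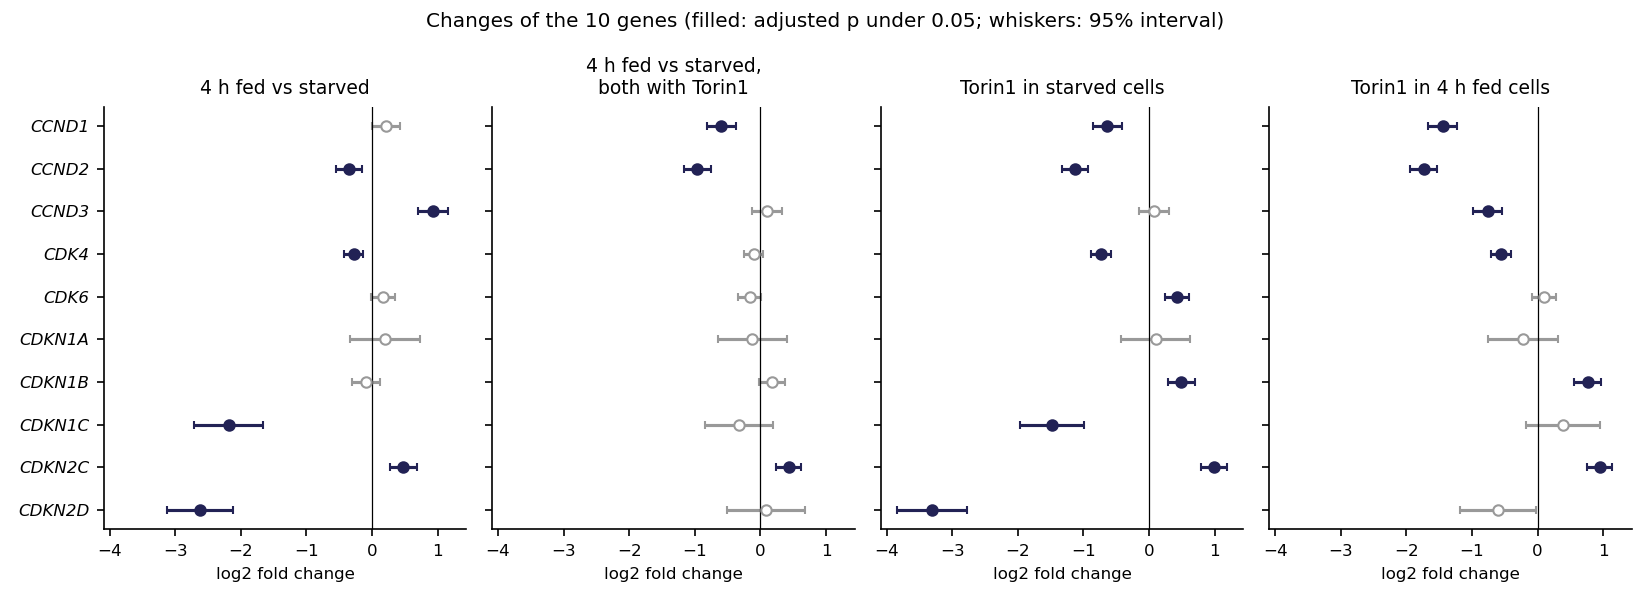
Log2 fold changes (horizontal axes) of the 10 genes with 95% intervals for 4 h of feeding without and with Torin1 and for Torin1 in starved and 4 h fed cells, filled where the edgeR adjusted p was under 0.05. The fall of CDKN2D (−2.62) and CDKN1C (−2.18) with feeding and the rise of CCND3 (0.93) were not called with Torin1.

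Levels of different genes were compared per transcript length, as TPM computed from the isoform counts. In starved cells CDK4 was the most abundant of the 10, at 452 ± 30.4 TPM (SD, n = 3), and CDKN2D came next at 69.9 ± 6.62 TPM, followed by CDKN2C at 35.5 ± 2.60 TPM. CCND3 (26.6 ± 0.409), CDKN1B (25.1 ± 1.30), CDKN1A (25.0 ± 3.11) and CCND2 (24.4 ± 1.35 TPM) came next, each overlapping its neighbours in this order, although every CCND3 value was above every CCND2 value. CDKN1C (16.9 ± 4.46) and CCND1 (16.2 ± 2.07 TPM) overlapped each other, and CDK6 was the lowest at 10.0 ± 0.690 TPM. After 4 h of feeding CDKN2C (45.4 ± 6.40) and CCND3 (48.4 ± 3.27 TPM) followed CDK4 (365 ± 24.1 TPM), and CDKN1C was the lowest at 3.80 ± 0.764 TPM. In 4 h fed cells with Torin1 CDKN2C stood at 97.9 ± 4.92 TPM and CCND1, CCND2 and CDKN1C at 7.20 ± 0.299, 6.41 ± 0.647 and 5.51 ± 1.36 TPM.

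CCND3 gained share among the D cyclins with feeding and with Torin1. It made up 39.6% ± 1.45 (SD, n = 3) of summed D cyclin TPM in starved cells (range 38.2% to 41.1%), 54.2% ± 2.71 after 4 h of feeding (range 51.9% to 57.2%), 55.3% ± 2.57 in starved cells with Torin1 and 70.6% ± 0.891 in 4 h fed cells with Torin1 (range 69.6% to 71.4%). CCND2 went from 36.3% ± 1.41 in starved to 21.4% ± 0.708 in 4 h fed cells, and from 23.2% ± 0.898 to 13.9% ± 1.33 in the same states with Torin1. The share of CCND1 was 24.1% ± 1.96 in starved and 24.4% ± 2.69 in 4 h fed cells and 15.6% ± 0.890 in 4 h fed cells with Torin1. The sum of the 3 was 67.2 ± 3.28 TPM in starved, 89.3 ± 2.92 in 4 h fed and 46.2 ± 1.67 in 4 h fed cells with Torin1. The higher share of CCND3 came with a higher sum in 4 h fed cells and a lower sum with Torin1. CCND1 stood at 16.2 ± 2.07 TPM in starved and 21.8 ± 2.46 TPM in 4 h fed cells, although its change in CPM was not called. Its transcript CCND1-201 held 98.5% of isoform counts in starved and 94.7% in 4 h fed cells. The part of this split in the TPM shares and sums was not tested.

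Among the 5 inhibitors CDKN2D and CDKN2C changed places. CDKN2D made up 40.5% ± 2.87 of summed inhibitor TPM in starved cells, 36.6% ± 4.54 after 1 h and 9.73% ± 3.37 after 4 h, and 4.58% ± 1.55, 4.86% ± 1.42 and 4.63% ± 0.723 in the 3 states with Torin1. CDKN2C made up 20.6% ± 1.86 in starved, 40.6% ± 2.09 in 4 h fed, 47.9% ± 4.05 in starved Torin1 and 53.4% ± 1.23 in 4 h fed Torin1 cells. The sum of the 5 was 172 ± 5.21 TPM in starved, 112 ± 14.8 in 4 h fed, 158 ± 13.9 in starved Torin1 and 183 ± 7.86 in 4 h fed Torin1 cells. These shares and sums were not tested.

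**Figure D4:**
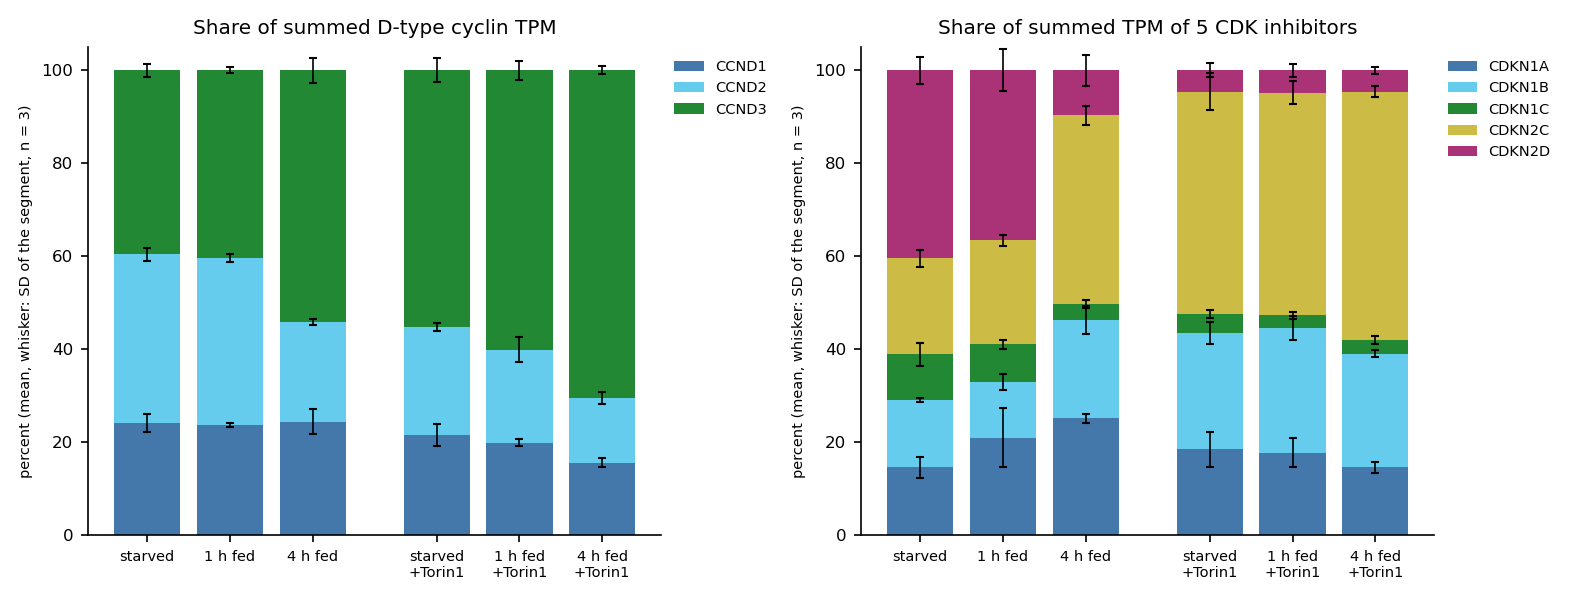
Shares in percent (vertical axes) of summed TPM of the 3 D-type cyclins and of the 5 CDK inhibitors in the 6 groups, as stacked means with the SD of each segment over 3 libraries as whiskers. CCND3 takes 70.6% ± 0.891 of D cyclin TPM in 4 h fed cells with Torin1, and CDKN2D shrinks from 40.5% ± 2.87 of inhibitor TPM in starved cells to 9.73% ± 3.37 in 4 h fed and 4.58% ± 1.55 in starved Torin1 cells.

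Isoform use, the split of a gene's reads over its transcripts, could be tested for 7 of the 10 genes, with diffSpliceDGE in edgeR over 10698 genes. In 4 h fed against starved cells 0 of 7 were called (1 at an unadjusted p under 0.05), against 3.29% of all genes, with Torin1 in starved cells 0 of 7 (1 unadjusted) against 15.2%, and with Torin1 in 4 h fed cells 0 of 7 (0 unadjusted) against 11.3%. On simulated data this test missed many changes and called too many unchanged genes. CDKN2C had the smallest p for feeding (adjusted p = 0.112). Its transcript CDKN2C-203 held 58.0% ± 4.62 of the gene's isoform counts in starved cells (SD, n = 3), 73.7% ± 4.23 in 4 h fed and 76.4% ± 2.99 in 4 h fed Torin1 cells, while CDKN2C-202 went from 31.1% ± 5.43 to 18.03% ± 6.51 and 16.5% ± 3.72. The main CCND3 transcript, CCND3-203, held 84.3% ± 1.91 in starved and 90.6% ± 3.38 in 4 h fed cells, and CCND3-213, which starts at another promoter, 9.02% ± 0.476 and 3.29% ± 1.37, with 0.945% ± 0.821 in 4 h fed Torin1 cells. CDK4-201 held 70.2% ± 1.12 of CDK4 in starved and 77.5% ± 2.57 in starved Torin1 cells. CDKN2D-201 held 79.9% ± 5.84 in starved and 82.1% ± 17.2 in 4 h fed cells, and CCND2 and CDKN1B were read almost wholly from 1 transcript each.

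Other genes of the same step were taken from 4 lists, and counts are given for 3 of them. Of 14 partners at the G1/S border (cyclins E and A, CDK2, the CDK-activating kinase, other inhibitors), 5 were higher and 5 lower after 4 h of feeding, where 23.2% and 19.1% of all genes were, with a median log2 fold change of −0.04 against −0.00 for all genes. The background for Torin1 was 33.9% higher and 29.6% lower in starved, 33.2% and 29.9% in 1 h fed and 27.4% and 28.6% in 4 h fed cells. Torin1 gave 2 higher and 10 lower in starved cells (median −0.64, all genes 0.09), 3 and 10 in 1 h fed cells (median −0.51) and 2 and 8 in 4 h fed cells (median −0.37, all genes 0.02). CDC25A, the phosphatase that activates CDK2, went from 267 ± 27.0 CPM in starved to 99.2 ± 8.58 CPM in starved Torin1 cells, a log2 fold change of −1.43 (SE 0.08), and CCNE1, a cyclin E gene, changed by −1.13 (SE 0.12). CCNG2, an atypical cyclin and FOXO target, fell with 4 h of feeding from 59.2 ± 2.95 to 23.7 ± 0.913 CPM, with an edgeR adjusted p of 5.76e-12 (−1.32, SE 0.10). It stood at 39.7 ± 3.77 and 42.9 ± 4.37 CPM in the same states with Torin1, an interaction of 1.43 (SE 0.14). CKS1B, which helps SKP2 bind CDKN1B, fell with feeding (−0.42, SE 0.10) and with Torin1 in starved cells (−1.08, SE 0.10). MNAT1, of the CDK-activating kinase, rose with 4 h of feeding (1.19, SE 0.16).

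Of 13 RB and E2F family genes, 6 were higher and 1 lower after 4 h of feeding (median 0.20, all genes −0.00), against 23.2% and 19.1% of all genes. Torin1 gave 8 higher and 5 lower in starved cells (median 0.35, all genes 0.09; background 33.9% and 29.6%), 6 and 4 in 1 h fed cells (median 0.23; 33.2% and 29.9%) and 4 and 6 in 4 h fed cells (median 0.02, all genes 0.02; 27.4% and 28.6%). RBL1 and RBL2, the RB relatives p107 and p130, rose with feeding. RBL1 went from 11.8 ± 3.59 to 31.8 ± 2.37 CPM, with an edgeR adjusted p of 4.88e-09 (1.44, SE 0.15), and RBL2 from 21.2 ± 1.02 to 44.5 ± 6.17 CPM (1.07, SE 0.13). In starved cells with Torin1 they stood at 47.7 ± 1.61 and 89.0 ± 10.3 CPM (2.02, SE 0.15 and 2.07, SE 0.12). E2F2 rose with 4 h of feeding (0.81, SE 0.11), and E2F3 was the 1 gene of these lists called after 1 h of feeding (0.32, SE 0.07, edgeR adjusted p = 0.0313).

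Of 15 genes for the breakdown of D cyclins and CDK inhibitors, 5 were higher and 1 lower after 4 h of feeding (median 0.23), against 23.2% and 19.1% of all genes. With Torin1 the counts were 4 and 6 in starved cells (median −0.05, background 33.9% and 29.6%), 5 and 4 in 1 h fed cells (median −0.05, 33.2% and 29.9%) and 1 and 6 in 4 h fed cells (median −0.20, 27.4% and 28.6%). AMBRA1, the adaptor that sends D cyclins to the CUL4 ubiquitin ligase, rose with feeding by 1.79 (SE 0.14), from 15.8 ± 1.55 to 54.6 ± 1.65 CPM. SKP2 and CUL1, parts of the ligase that removes CDKN1B, rose as well, from 44.1 ± 2.54 to 92.4 ± 2.70 CPM (1.07, SE 0.08) and from 57.6 ± 1.43 to 152 ± 8.003 CPM (1.40, SE 0.08). All 3 were also higher with Torin1 in starved cells, at 45.9 ± 4.71, 104 ± 0.499 and 131 ± 1.38 CPM (1.54, SE 0.14, 1.24, SE 0.08 and 1.19, SE 0.08). Their response to 4 h of feeding was lower under Torin1, with interactions of −1.74 (SE 0.19), −1.10 (SE 0.11) and −1.38 (SE 0.11).

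From the last list, which holds FOXO genes and stress response genes, single genes are given without counts. BAX and BBC3, which promote apoptosis, fell with 4 h of feeding (−0.53, SE 0.09 and −1.28, SE 0.18). SESN2, which restrains mTOR, was lower with Torin1 in starved (−1.74, SE 0.16), 1 h fed (−1.87, SE 0.16) and 4 h fed cells (−1.81, SE 0.16). FOXO1 rose with 4 h of feeding under Torin1 (0.51, SE 0.12, edgeR adjusted p = 0.0173). Under Torin1, after 4 h of feeding, this was the 1 call in the 4 lists. List medians were taken with TMM scaling, so those within the shifts of total counts given above rest on that scaling.

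**Figure D5:**
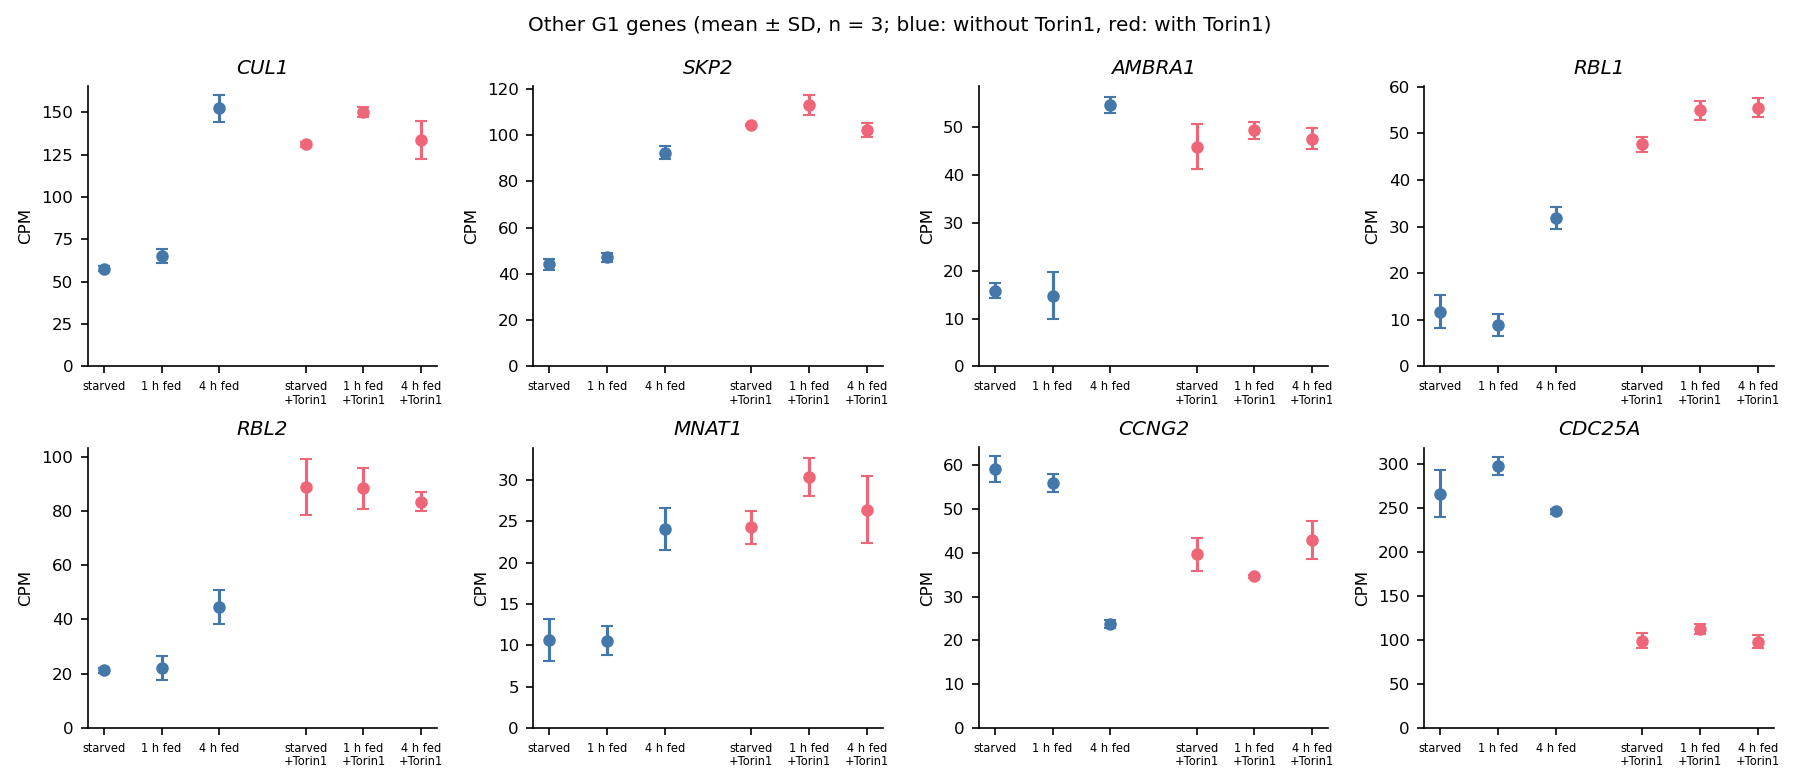
Mean ± SD of 3 libraries in CPM (vertical axes, from 0) of 8 other G1 genes in the 6 groups, without Torin1 in blue and with Torin1 in red. CUL1, SKP2, AMBRA1, RBL1, RBL2 and MNAT1 are low in starved and 1 h fed cells and higher in 4 h fed and Torin1 cells, whereas CCNG2 is lowest in 4 h fed cells and CDC25A is low in all Torin1 groups.

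For each gene called at least once, the 3 genes with the most similar profile were found by Pearson's r of log2 CPM over the 18 libraries, among the 11695 genes whose mean reached 5 CPM. These values describe libraries that share 6 groups and 1 scaling. CDKN2D was most like DNAJB1, a heat shock cochaperone (r = 0.978), MLX (0.977) and CBFB (0.974). CDKN1C was most like TNFAIP8L1 (0.943), LOX (0.940) and IFNLR1 (0.933). CCND3 was most like MON1A (0.946), YBX3 (0.942) and KEAP1 (0.942), and CDKN2C like ZNF425, HOXA3 and ACTR1B (0.968, 0.968 and 0.967). CDKN1B was also most like HOXA3 (0.950), followed by CIB2 and ORAI3. CDK4 was most like GRPEL1 (0.991), POLR3K and CENPX, CCND2 like SLC1A3 (0.984), HSPA4L and NQO2, CCND1 like EXOSC3 (0.979), NEFM and SAMD4A, and CDK6 like THOC2 (0.942), ARHGAP21 and EML4.

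Within the list, CCND2 and CCND1 had an r of 0.948 and CCND2 and CDK4 of 0.946, over the same 18 libraries. CDKN2C went against CCND2 (−0.964) and CDK4 (−0.949) and with CDKN1B (0.909). CDKN2D had an r of 0.907 with CDK4, 0.866 with CDKN1C and −0.855 with CDKN2C, while CCND3 and CDKN2C stood at 0.018.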

How the data were processed

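The 18 libraries were grouped by the labels into 6 groups of 3. The deposited gene table holds expected counts estimated with RSEM, after alignment with STAR in a 2-pass procedure, per the submitters' processing notes and the labels' protocols, and 3.32% of its values were not whole. The deposited isoform table holds counts per transcript as whole numbers. The labels name a C. elegans build, although the identifiers are human Ensembl identifiers. For the human build, the annotation release and strand use in counting, nothing is stated: not given in the sources used here. Reads from overlapping genes on the other strand cannot be told apart without strand, and strand would not separate those from genes on the same strand.

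Counts were rounded, filtered by filterByExpr at a minimum count of 10 and scaled by TMM. Group means of all 18 libraries were fitted with edgeR 4.0.16 in R 4.3.3 by robust quasi-likelihood, which left 12 residual degrees of freedom and a biological coefficient of variation of 10.6%. The 11 comparisons were tested by F tests with Benjamini-Hochberg adjustment over 16414 genes and called at an adjusted p under 0.05. CPM are given as mean ± SD over 3 libraries and log2 fold changes with SE or 95% interval. For isoform use, diffSpliceDGE of edgeR was run on 48658 isoforms (10698 genes) named by GENCODE 29. TPM were isoform counts over GENCODE 29 transcript length, scaled per library. Symbols came from a gene name table for 60295 identifiers and from GENCODE 29 for 250. Both tests were tried on simulated data.

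The 10 genes, the 4 further gene lists and the marker lists were chosen with earlier results of these data known. From each list the 3 genes with the smallest p among those called in a comparison, at a mean of at least 5 CPM, could be named. The counts of 1 list are not reported here. Replicate libraries of a group differed by more than sampling noise. Replicate numbers of the labels were checked for pairing by the correlation of deviations from group means: every same-numbered pair was over 0.1 in 1 of 15 pairs of groups, starved and 4 h fed cells with Torin1, where a replicate block changed no call of the 10 genes. As alternatives, the Wald test and the size factors of DESeq2 1.42.0 were used, and total counts, no low-count filter, a replicate block, a fit of only the groups compared and fits without each library.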

Additional observations from a re-analysis of the deposited data

Results flagged for a closer look

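The response to 4 h of feeding differed between cells with and without Torin1 for 5 of the 10 genes, tested by the interaction term (response with Torin1 minus response without) in edgeR. Of all genes tested, 25.8% were called for this term, 9.74% upward and 16% downward. For CCND1 the difference was −0.81 on the log2 scale (edgeR adjusted p = 0.00015), from a change of 0.22 without Torin1 that was not called and of −0.59 with it. For CCND2 it was −0.61 (adjusted p = 0.00129), with a fall in both states. For CCND3 it was −0.84 (adjusted p = 0.000121), where the rise of 0.93 without Torin1 stood against 0.10 with it. CDKN1C and CDKN2D had positive differences of 1.86 (adjusted p = 0.000214) and 2.70 (adjusted p = 1.23e-05). Both were already low in starved cells with Torin1, at 5.57 and 4.57 CPM, against 15.6 and 46.0 CPM in starved cells without it. Groups of 3 were not searched for single outlying libraries.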

How the results depend on the processing

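In the main fit 47 of the 110 log2 fold changes of the 10 genes were called. Under alternatives, 1419 of 1440 values had the same status as in the main fit, called or not called. A call was lost by 8 values and gained by 13. Of called values 0 reversed, while 40 values that were not called changed sign. Counts of all genes called depended more on the setting. For 1 h of feeding (106) they were 164 with no filter, 170 by the DESeq2 Wald test, 42 with only the groups compared and 56 (without starved replicate 2) to 248 (without 1 h fed replicate 1) with a library left out. For 1 h under Torin1 (66) they were 150, 120, 192 and 22 to 46, and 110 with a replicate block. For 4 h under Torin1 (296) they were 471 by DESeq2, 583 with only the groups compared and 136 to 191. From 1 h to 4 h under Torin1 (241) they were 364 with no filter, 374 with the block, 447, 693 and 97 to 202. For the 1 h interaction (11) they were 77, 23, 39, 2 and 3 to 41, and members called went from 0 to 1 (CDKN1B) with no filter, the block and DESeq2, and 0 to 1 with a library left out. Without 1 library, members with changed isoform use were 0 to 1 for 4 h of feeding (CDKN2C, without 4 h fed replicate 1) and for Torin1 in starved cells (CDK4, without starved Torin1 replicate 3). Members called after 4 h under Torin1, and from 1 h to 4 h under it, were 2 to 3. Replicate numbers do not pair most groups: 18 of 45 same-numbered correlations were over 0.1 (range −0.244 to 0.388), and 30 were highest with their own number. The block added CDKN2D for Torin1 in 4 h fed cells, CDKN1B in the 1 h interaction and CDK6 in the 4 h interaction to the members called and changed no other call. The causes were not tested. Depth limits CDKN1C and CDKN2D most, with 32 and 39 counts in their lowest libraries.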

Other observations

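Per transcript length, the 3 D cyclins together stood at 0.39 ± 0.027 of the summed 5 inhibitors in starved cells (ratio of TPM, SD, n = 3), 0.52 ± 0.085 after 1 h and 0.807 ± 0.093 after 4 h of feeding. With Torin1 the ratio was 0.341 ± 0.012 in starved, 0.343 ± 0.018 in 1 h fed and 0.252 ± 0.0077 in 4 h fed cells. The 4 h fed libraries without Torin1 (0.702 to 0.881) were above all others, and those with Torin1 (0.245 to 0.260) below all others. This ratio was chosen after the values were seen, was not tested, and says nothing of protein. It includes CCND1, whose TPM differed between starved and 4 h fed cells although its change in CPM was not called.

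CDKN1A was the 1 gene of the 10 with the same replicate number highest in each group, replicate 1 in 6 of 6. The other genes had a given number highest in at most 4 of 6 groups. In the 4 h fed group without Torin1, replicate 1 also held the highest level of CCND2, CCND3, CDK4, CDKN1A, CDKN2C and CDKN2D. The share of all genes with either trait was not determined, so neither can be called particular to these genes.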
